A study of Mus musculus with 20 samples.

Results

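The experiment described here is the exposure of 2 mouse embryonic fibroblast lines that lack the p150 form of ADAR1 to interferon. It takes in 8 of the 20 libraries of the series: 2 untreated and 2 interferon-treated libraries of the line labelled ADAR1_NULL, and 2 untreated and 2 interferon-treated libraries of the line labelled P150_KO. The 20 libraries come from 5 lines; the series speaks of 6, and the other was not analysed here. Sites were taken if at least 50 reads lay over them in all 8 libraries, which left 4259 of the 48425 sites that the authors list. Interferon was compared with no treatment within each line, so that the line acted as a block.

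ADAR enzymes deaminate adenosines within double-stranded RNA to inosine, and inosine is read as guanosine in cDNA. ADAR1 is made as p110, which is constitutive and mainly nuclear, and as p150, which starts from an interferon-inducible promoter and is found largely in the cytoplasm. ADAR2, the product of Adarb1, is a separate gene's enzyme with its own preferred sites. An ADAR1-null cell can edit only with ADAR2, and a p150-knockout cell with p110 and ADAR2. In neither line can interferon raise p150, so the comparison asks what interferon does to the remaining editing.

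Each genotype is a single line of mouse embryonic fibroblasts, which are connective tissue cells grown from embryos, and no label ties the 2 libraries of a group to different cultures; p-values therefore speak only of library-to-library spread, which may be technical. No source used here gives the lines' further background, or which interferon was added, how much and for how long. The wild-type line, labelled ADAR1_WT, and the line labelled STAT2_NULL, which lacks a signal transducer downstream of type I interferon receptors, are used below for comparison, each with 2 untreated and 2 treated libraries. Of the 10 fibroblast marker genes listed for this work none had a covered site, nor had the 6 neuron, 5 macrophage and 4 epithelium markers, so the cell type of these amplicon libraries was not checked. The files list no covered site in Adar either, so the loss of p150 was not checked at the RNA level.

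The 8 libraries held 4389326 to 5559674 reads summed over sites, and 5652 to 8637 sites per library had at least 50 reads. A pair of libraries stood apart. The first untreated ADAR1-null library had the fewest such sites, 5652, and the first treated p150-knockout library had 5819. The latter also held 10 of the 4259 sites at a level over 10 percentage points above its partner library, where the other 7 libraries held 0 or 1 such site. At chromosome 6, position 50512701 in the 3′ UTR of Cycs, for instance, it read 78.2% and its partner 0%. Results below are given with and without these libraries where that changes them.

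Little editing was left in either line. Of the 4259 covered sites, which lie in 196 genes or intergenic loci, 214 (5.02%) had no edited read in any of the 8 libraries and 3931 (92.3%) had edited reads at a mean level under 1%. A mean level of at least 1% was reached by 114 sites (2.68%) in 68 loci, which were the sites tested. Only 8 of the covered sites had a mean of at least 5% and 2 a mean of at least 20%. Of the 114 tested sites 87 lay in 3′ UTRs, 12 in introns, 8 at nonsynonymous and 1 at a synonymous coding position, 5 in a noncoding RNA and 1 in a 5′ UTR.

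The mean level over the 114 sites differed with interferon in opposite directions in the 2 lines. In ADAR1-null cells it was 2.97% and 2.56% in the untreated libraries and 1.80% and 1.66% in the treated ones, a difference of -1.04 points, with no overlap. In p150-knockout cells it was 3.68% and 3.64% untreated and 4.93% and 3.65% after interferon, a difference of 0.629 points. Here the first treated library alone stood above the rest, and its partner lay between the untreated libraries. Averaged over the lines the difference was -0.205 points, and an exact two-sided permutation test within lines gave p = 0.778; the smallest p this design allows is 0.0556. With edited reads taken over all reads of the same sites, which gives deeply read sites more weight, the difference was -1.06 points (p = 0.111 by the same exact test), and over the 8 sites with a mean of at least 5% it was -1.56 points (exact p = 0.556). Without the first untreated ADAR1-null library the average difference was 0.301 points, and without the second treated p150-knockout library 0.192 points, so its sign rested on single libraries.

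**Figure D1:**
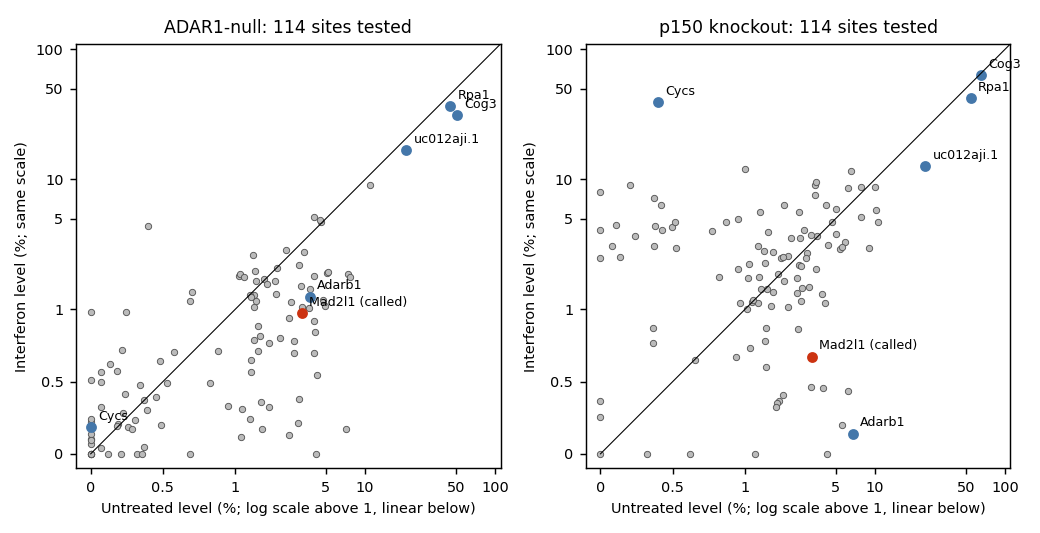
Mean editing level of each of the 114 tested sites in untreated libraries (horizontal axis, %) against treated libraries (vertical axis, %), 2 libraries per mean, for ADAR1-null cells (left) and p150-knockout cells (right); axes are logarithmic above 1% and linear below, and the line marks equal levels. In ADAR1-null cells 72 of the 114 sites have a treated mean below the untreated one and 38 above it, and in p150-knockout cells 53 below and 60 above; Cycs in the right panel is high in 1 treated library only.

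Only 1 of the 114 tested sites (0.877%) was called, and it was lower after interferon; a call means a p under 0.05 after Benjamini-Hochberg adjustment in edgeR's quasi-likelihood test on edited and unedited reads. It lies in the 3′ UTR of Mad2l1, which encodes a protein of the spindle assembly checkpoint, at chromosome 6, position 66490206 on the plus strand (mm9). Its level was 3.23% and 3.28% in untreated and 0.959% and 0.989% in treated ADAR1-null libraries. In the p150 knockout it was 3.41% and 3.15% untreated and 0.707% and 0.640% after interferon. All 4 treated libraries lay below all 4 untreated ones, and each had at least 6722 reads over the site. The treated mean was 0.823% and the untreated mean 3.27%, so the site passed the 1% minimum only through untreated libraries. The level fell by 2.44 points (SE 0.0685, n = 4 against 4; edgeR adjusted p = 0.00691).

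The call at Mad2l1 was lost without the first or the second untreated ADAR1-null library (edgeR adjusted p = 0.0591 and 0.0925) or the first untreated p150-knockout library (0.0624), and with limma on log2 odds (0.130), always with the same direction. Over all 16 alternatives in which it was tested, the adjusted p ran from 0.000378 to 0.130. Over the site, wild-type cells read 16.9% and 15.7% untreated and 14.7% and 30.8% after interferon. The reads over the Mad2l1 amplicon were themselves fewer in the treated libraries, at 6722 to 8191 against 8987 to 10712 in the untreated ones (edgeR adjusted p = 0.982); their part in the editing result was not tested.

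The 3 positions that follow in Mad2l1 were not called, and turned on the first treated p150-knockout library. At position 66490208 the untreated libraries read 8.40% and 6.47% (ADAR1-null) and 5.19% and 4.91% (p150 knockout). After interferon the ADAR1-null libraries read 1.43% and 2.31%, and the p150-knockout libraries 6.35% and 1.22%. The treated ADAR1-null libraries lay below the untreated ones, but in the p150 knockout the first treated library was higher than both untreated ones (edgeR adjusted p = 0.312). Without that library all 4 adjacent positions were called, from 66490206 to 66490209, all lower after interferon. Without both libraries that stood apart, 5 of the sites tested were called, 4 of them lower at these same positions and 1 intergenic site higher.

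With the called site counted, 12 of 114 (10.5%) had an unadjusted p under 0.05 in the edgeR test, 11 lower and 1 higher after interferon. The next smallest p after Mad2l1 belonged to an intronic site of Adarb1 (chromosome 10, position 76786805, minus strand). ADAR2 is known to edit its own pre-mRNA. In ADAR2-null cells, however, this site read 3.26% and 1.32% untreated and 6.56% and 8.08% after interferon. Which enzyme edits it was not tested. The level was 4.38% and 3.15% in untreated and 2.40% and 0.109% in treated ADAR1-null libraries. In the p150 knockout it was 6.86% and 6.63% untreated and 0.0523% and 0.229% after interferon, which is 10 edited of 7317 reads. No treated library overlapped an untreated one of its line, and the mean difference was -4.56 points (SE 0.654; edgeR adjusted p = 0.174, not called). In 12 alternatives it was not called either, always with a lower level after interferon. Among them were limma on log2 odds (adjusted p = 0.130), the replicate number as a block (edgeR adjusted p = 0.0699) and a coverage minimum of 100 (edgeR adjusted p = 0.146). The others included leaving out any library except the first treated ADAR1-null one. The site was called with DESeq2 (adjusted p = 0.000284), in a fit on all 20 libraries (edgeR adjusted p = 0.00552), when the first treated ADAR1-null library was left out (0.000777) and when no minimum level was set (3.02e-09).

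4 other genes showed the same order without being called. In the 3′ UTR of Klhl24, an adaptor of a cullin ubiquitin ligase (chromosome 16, position 20123821), the ADAR1-null level was 3.72% and 4.37% untreated and 1.24% and 0.604% after interferon, and the p150-knockout level 4.33% and 3.91% against 0.296% and 1.94%. The 3′ UTR site of Cdk7, a kinase of the transcription factor TFIIH (chromosome 13, position 101469884), went from 3.72% and 4.40% to 0.738% and 0.654% in ADAR1-null and from 2.12% and 1.38% to 0% and 0.651% in p150-knockout libraries. In both genes every treated library lay below every untreated one of its line (edgeR adjusted p = 0.282 for each). A 3′ UTR site of 4933407H18Rik (chromosome 5, position 33758586) read 3.99% to 7.11% in the 4 untreated libraries and 0% to 2.94% in the treated ones (edgeR adjusted p = 0.283). A 3′ UTR site of Commd2 (chromosome 3, position 57449852) read 1.47% to 2.17% untreated and 0% to 0.647% treated (edgeR adjusted p = 0.312).

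**Figure D2:**
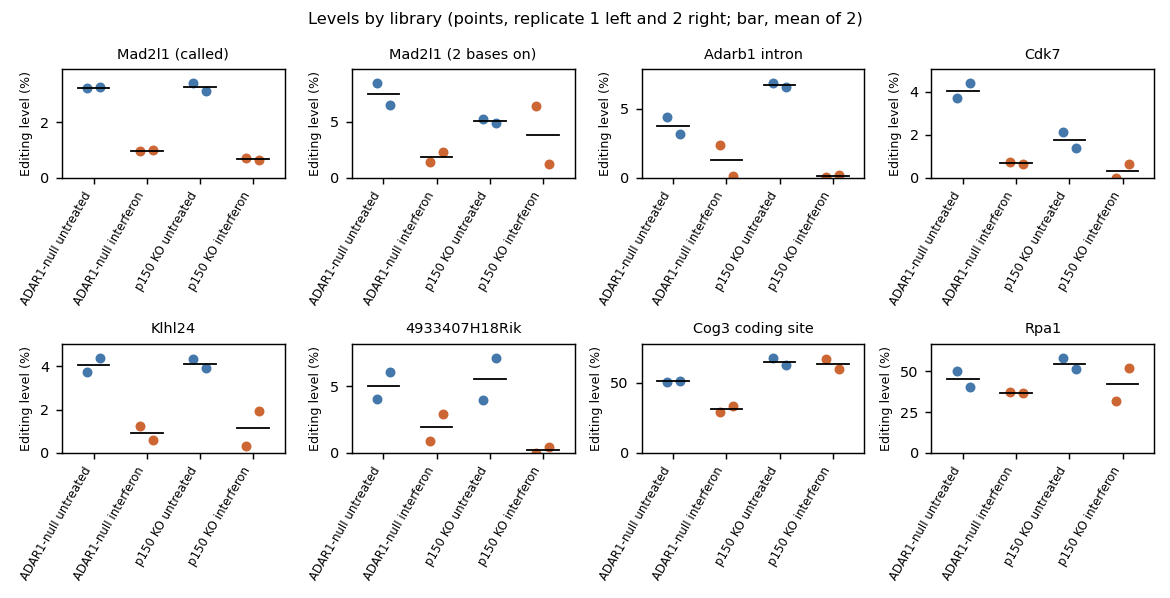
Editing level (%) in each of the 8 libraries at 8 sites, by line and treatment, with the mean of 2 libraries as a bar; vertical axes start at 0 and differ between panels. Treated points lie below untreated points of the same line at the first Mad2l1 site, Adarb1, Cdk7, Klhl24 and 4933407H18Rik, whereas the second Mad2l1 site, Cog3 and Rpa1 overlap in the p150 knockout.

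The rest of the 12 genes with the smallest p depended on 1 or 2 libraries. Sh2d5, Exoc8, Fbxl17 and Dnajc1 were at or below 1.06% in at least 6 of their 8 libraries, with a high value in 1 library each: 6.87% in an untreated p150-knockout library for Sh2d5, and 7.72%, 7.32% and 17.7% in a treated one for Exoc8, Fbxl17 and Dnajc1. Cycs position 50512588 read 13.3% in the first untreated ADAR1-null library and at most 0.993% in the other 7. A 3′ UTR site of 9930104L06Rik (chromosome 4, position 124621626) was the only site with an unadjusted p under 0.05 that was higher after interferon, at 5.59% and 2.95% in treated against 0.993% and 0% in untreated p150-knockout libraries (edgeR adjusted p = 0.333, not called). This site passed the 1% minimum only through treated libraries, with an untreated mean of 0.248%, as did those of Exoc8, Fbxl17 and Dnajc1. Those of Sh2d5 and Cycs passed only through untreated libraries.

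By order alone, treated libraries lay below untreated ones without overlap at 36 of the 114 sites (31.6%) in ADAR1-null cells and above them at 12 (10.5%). In the p150 knockout 23 sites (20.2%) were lower and 19 (16.7%) higher. With 2 libraries against 2, such an order often arises without any effect, so these counts describe the libraries only. In both lines together 10 sites (8.77%) were lower and 2 (1.75%) were higher, while 7 moved in opposite directions. The 10 were in Mad2l1 (3 sites), Adarb1, Cdk7, Klhl24, Commd2, 4933407H18Rik, Psma3 and the noncoding RNA uc012aji.1. The 2 were an intronic site of Ifnar1, which encodes a subunit of the type I interferon receptor, and a coding site of Sh3bp2. Since the 1% minimum was a mean over all 8 libraries, a site could pass it through 1 side alone. The 2 higher sites passed only through treated libraries, with untreated means of 0.209% (Ifnar1) and 0.554% (Sh3bp2). Some lower sites passed only through untreated libraries. Among them were the called Mad2l1 site, with a treated mean of 0.823%, Adarb1 (0.697%), Cdk7 (0.511%) and Commd2 (0.345%). Over all 4259 covered sites, most of them under 1%, the balance was the other way: 111 (2.61%) were higher in both lines and 53 (1.24%) lower. By line, 654 of these sites were higher and 322 lower in ADAR1-null cells, and 681 higher and 459 lower in the p150 knockout.

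The sites with the most editing left were few. The 12 genes with the highest untreated level are described here, a choice that favours lower levels after treatment. None of the 114 tested sites was a called increase, so these genes could hold none. The highest was the coding site of Cog3 that changes isoleucine to valine (chromosome 14, position 76119526, minus strand); Cog3 is a subunit of a Golgi tethering complex. It read 50.4% and 51.7% in untreated and 29.4% and 33.2% in treated ADAR1-null libraries, a difference of -19.7 points (SE 2.02). In the p150 knockout it read 67.6% and 62.9% untreated and 67.4% and 60.2% after interferon, a difference of -1.43 points (SE 4.29). The ADAR1-null libraries did not overlap and the p150-knockout libraries did. Neither the shared change (edgeR adjusted p = 0.689), nor that in ADAR1-null cells alone (0.794), nor the difference between the lines (0.974) was called. In ADAR2-null cells, which keep ADAR1, the site read 7.73% to 13.5%.

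In the 3′ UTR of Rpa1, the large subunit of a protein that coats single-stranded DNA (chromosome 11, position 75114517), the ADAR1-null level was 50% and 40.7% untreated and 37.1% and 36.4% after interferon. The p150-knockout level was 58.0% and 51.6% untreated and 31.9% and 52.2% after interferon. The treated value of 31.9% is again from the first treated p150-knockout library, and the groups overlapped in that line (edgeR adjusted p = 0.696). The noncoding RNA uc012aji.1 (chromosome 17, position 6122636) read 23.3% and 18.1% against 16.9% and 16.5% in ADAR1-null and 24.1% and 24.8% against 7.64% and 17.6% in p150-knockout libraries. Neither line overlapped (edgeR adjusted p = 0.463, not called). Psma3, which encodes a proteasome subunit, had a 3′ UTR site (chromosome 12, position 72095616) at 4.97% and 5.36% against 2.93% and 0.952% in ADAR1-null cells and at 9.74% and 10.8% against 5.99% and 5.56% in the p150 knockout, also without overlap and not called (edgeR adjusted p = 0.463).

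Other sites of this group were edited mainly in 1 line. Als2cl (chromosome 9, position 110802807) read 11.4% and 10.4% in untreated and 8.86% and 9.30% in treated ADAR1-null libraries, and at most 1.05% in the p150 knockout. Mdc1, a mediator of the DNA damage checkpoint (chromosome 17, position 35994679), was the reverse, with at most 0.735% in ADAR1-null and 5.57% to 11.9% in p150-knockout libraries. Neither was called (edgeR adjusted p = 0.903 and 0.831). Of the 13 sites with a mean of at least 5% over the 4 untreated libraries, 11 were lower and 1 higher without overlap after interferon in ADAR1-null cells. In the p150 knockout 5 of them were lower and 0 higher. These sites were picked by their level in the same untreated libraries, which favours a lower level after treatment. Over all 114 tested sites 36 were lower and 12 higher in ADAR1-null cells, and 23 lower and 19 higher in the p150 knockout.

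None of the 114 tested sites was a called increase, so no gene list could hold one. The 22 genes of the ADAR2-type recoding list gave 6 tested sites in 4 genes, Cog3, Adarb1 and Gria3 among them; all 6 had a lower mean after interferon, 0 were called, and the median difference was -2.27 points, against -0.173 points over all 114 sites. Gria3, a subunit of AMPA-type glutamate receptors (chromosome X, position 39007429, arginine to glycine), was led by the library that stood apart, at 7.97% and 7.77% untreated and 15.8% and 1.70% treated in the p150 knockout. The long 3′ UTR duplexes of Mad2l1 and Rpa1 gave 9 tested sites, all 9 lower in the mean, with 1 called and a median difference of -1.60 points. These 9 include the 4 adjacent Mad2l1 positions, and sites of 1 amplicon share reads, so they are not independent. For both lists the comparison is with all 114 tested sites, of which 65 were lower in the mean.

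The 4 genes of the ADAR1-type recoding list gave 2 tested sites, both in Blcap and both with 0 calls. The site that changes tyrosine to cysteine (chromosome 2, position 157383885) was at or below 0.387% in all ADAR1-null libraries, and read 4.95% and 7.37% in untreated and 11.8% and 5.39% in treated p150-knockout libraries, which overlapped (edgeR adjusted p = 0.944). DNA repair and apoptosis genes gave 6 tested sites with 0 called and a median of -0.544 points, and RNA-binding and nucleolar genes 2 with 0 called and a median of 1.09 points. The 42 interferon-response and RNA-sensing genes had 66 covered sites but only 1 tested, the intronic site of Ifnar1 (chromosome 16, position 91490901): 0.185% and 0.174% against 0.812% and 0.337% in ADAR1-null and 0.155% and 0.324% against 6.98% and 0.334% in p150-knockout libraries (edgeR adjusted p = 0.463).

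Taken separately, ADAR1-null cells had 0 of 114 sites called (0%; 7 had a p under 0.05 before adjustment, all lower; limma called 0). The ADAR1-null count rose without either treated p150-knockout library, through Mad2l1 positions that were lower after interferon. The p150 knockout had 1 of 114 (0.877%), the Mad2l1 site called in both lines together, at an edgeR adjusted p of 0.0286. That call was lost in 9 alternatives and kept in 5. The losses included the replicate number as a block (0 sites), limma on log2 odds and no minimum level. The response of the p150 knockout minus that of ADAR1-null cells was called at 0 of 114 sites (0%; 4 had a p under 0.05 before adjustment; limma called 0). The smallest edgeR adjusted p of that difference was 0.725, at a 3′ UTR site of Dnajc1 (chromosome 2, position 18136982), which read 3.14% and 5.39% untreated and 0.888% and 0.206% treated in ADAR1-null cells but 0% in both untreated p150-knockout libraries. With reads pooled over each of 68 loci, 0 were called (0%; 8 had a p under 0.05 before adjustment, 7 of them lower; limma called 0), and the smallest edgeR adjusted p was 0.0809, for 4933407H18Rik. Leaving out the first treated p150-knockout library gave 2 called loci, and leaving out either treated ADAR1-null library 1.

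With no minimum level, 3 of the 4045 sites with an edited read in some library (0.0742%) were called in edgeR's test. All 3 were lower after interferon: Mad2l1 66490206 and 66490209 (adjusted p = 0.0104 for each) and Adarb1 76786805 (3.02e-09). Before adjustment the balance was the other way: 106 sites with a p under 0.05 were higher and 61 lower. At the second Mad2l1 site the ADAR1-null levels were 4.63% and 3.60% untreated against 1.02% and 0.672% treated. In the p150 knockout they were 2.47% and 2.96% against 2.05% and 0.268%. In ADAR1-null cells alone, 1 site was called at this setting, a further Mad2l1 position, and it was higher after interferon. The difference between the lines was called at that same position.

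The sites at which interferon raises editing when p150 is present stayed near 0 in both lines. In wild-type cells, 841 sites covered in their 4 libraries and in these 8 were tested; 204 (24.3%), in 59 loci, were called, all higher after interferon, by a median of 14.5 points. The 1% minimum was a mean over the 4 wild-type libraries, so a site could pass it through treated ones alone, which favours a rise. The median level of the 204 sites was 0.319% and 0.321% in untreated wild-type libraries and 14.0% and 16.2% in treated ones. In the lines lacking p150 it was 0.115% to 0.251% in the 4 untreated libraries and 0.176% to 0.293% in the 4 treated ones. The median difference with interferon in the lines lacking p150 was 0.0210 points. No site was over 10% in any of the 8 libraries, 201 of 204 were under 5% and 156 under 1% in every one.

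An interval was set on the change at each of these sites with limma on levels. The upper 95% limit was under 10 points at all 204 sites and under 10% of the site's own wild-type rise at 178. The greatest upper limit was 2.88 points and the median 0.362 points. These limits are for single sites and are not adjusted for their number; 6 sites had an interval wholly above 0 and 6 one wholly below it. Among the former was Gnl3l, a nucleolar GTPase (chromosome X, position 147420065), with 0.346 points against a wild-type rise of 49.3 points, and among the latter Rpa1 position 75114512, with -0.667 points against 50.6.

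The genes with the greatest wild-type rise show the contrast site by site. At the 3′ UTR site of 2900026A02Rik (chromosome 5, position 113516516) wild-type cells went from 3.65% ± 1.95 to 84.8% ± 2.80 (SD, n = 2), while the 4 treated libraries lacking p150 read 0.421%, 0.177%, 0.147% and 0.157%. At Mmgt1, a membrane protein of the endoplasmic reticulum (chromosome X, position 53840820), wild type went from 14.6% ± 1.28 to 92.1% ± 6.36 (SD, n = 2) and the treated libraries lacking p150 read 0.269%, 0.166%, 0.371% and 0.234%. The untreated libraries of the same lines read 0% to 0.282% at the former site and 0% to 0.621% at the latter, so treated and untreated libraries overlapped.

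At Gla, which encodes a lysosomal galactosidase (chromosome X, position 131123831), all 4 treated libraries lacking p150 had no edited read, 0 of 358 reads in ADAR1-null and 0 of 532 in p150-knockout cells, which allows levels of up to 0.838% and 0.564% (3 reads; counting error only), against 71.8% ± 3.43 in treated wild type (SD, n = 2). Rhoa, a small GTPase of the cytoskeleton (chromosome 9, position 108239461), read 0.119% to 0.353% treated and 0% to 0.317% untreated without p150, and 67.0% ± 2.37 in treated wild type (SD, n = 2). Mlh3, a mismatch repair gene (chromosome 12, position 86576054), had 0% in 3 of the 4 treated libraries and 0.170% in the other. The highest of the 12 genes without p150 was Bri3bp (chromosome 5, position 125936975), with 2.44% and 3.06% in untreated and 1.38% and 1.56% in treated p150-knockout libraries, and at most 0.410% in ADAR1-null libraries.

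**Figure D3:**
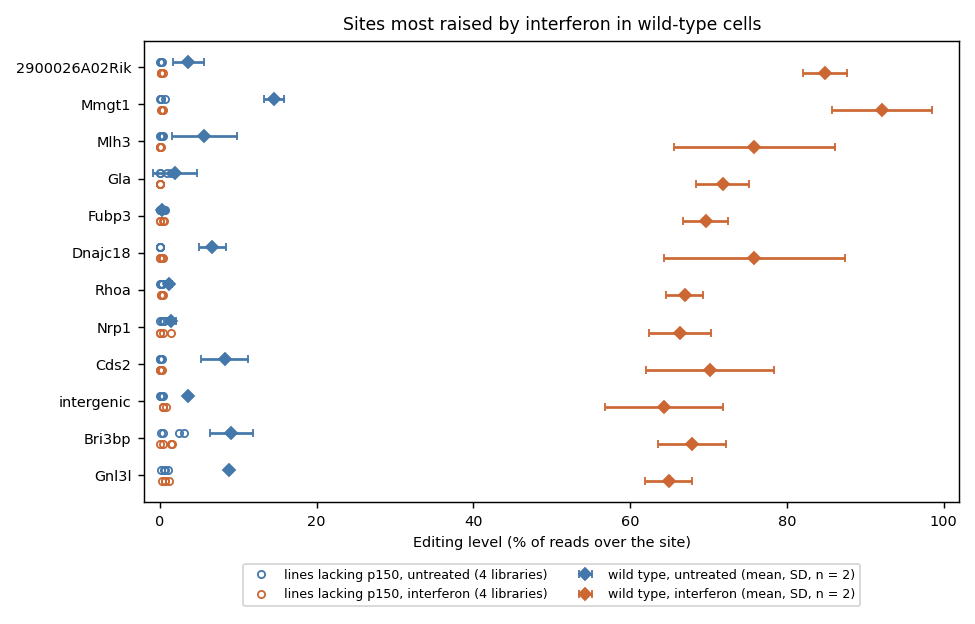
Editing level (%) at 1 site of each of the 12 genes with the greatest rise in wild-type cells; filled diamonds with bars are wild-type means ± SD (n = 2) and open circles the single libraries of both lines lacking p150, blue for untreated and orange for interferon. Treated wild-type means lie between 64.3% and 92.1%, while every open circle lies at or below 3.06%.

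Tested directly over sites covered in all 12 libraries, the lines lacking p150 responded less than wild type at 119 of 586 sites (20.3%; 45 loci) and more at 0 (edgeR's quasi-likelihood test, interaction of line and treatment). A site could enter through its level in treated wild-type libraries alone, since the minimum of 1% was taken over all 12 libraries. With no minimum level 101 of 4105 sites were called, 99 with a smaller and 2 with a larger response without p150. In 3′ UTRs 109 of 518 sites were called, in introns 4 of 31, between genes 3 of 8, in noncoding RNAs 3 of 16, and among 12 nonsynonymous sites 0. The greatest differences were at 2900026A02Rik (-81.1 points, SE 2.42, adjusted p = 0.0155), Mmgt1 (-77.5 points, SE 4.59, adjusted p = 0.0181) and Gla (-70.4 points, SE 3.14, adjusted p = 0.0155). The count was 62 without the second untreated ADAR1-null library, 63 and 76 without the second or first untreated p150-knockout library, 67 without the second treated wild-type library, 38 with the replicate number as a block and 275 with limma on log2 odds.

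Against STAT2-null cells, which keep ADAR1 but lack a factor that carries the interferon signal, the response differed at 1 of 236 sites (0.424%), the Mad2l1 site 66490206, where STAT2-null cells read 16.6% and 16.3% untreated and 17.4% and 18.6% after interferon. The response without p150 differed from theirs by -3.95 points (edgeR adjusted p = 0.0376). The call was lost with limma, with the replicate block, with a coverage minimum of 20, with no minimum level and on leaving out any 1 of 8 of the 12 libraries. The first treated p150-knockout library moved the count the other way, to 4 called sites when it was left out. At the Adarb1 site STAT2-null cells read 6.78% and 10.6% untreated and 10.3% and 10.3% treated (edgeR adjusted p = 0.449, not called).

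The reads over an amplicon give a coarse view of the transcript, since multiplex PCR sets their number along with the input; fewer cells and less RNA per cell cannot be told apart either. Over 349 loci, 0 were called for a change in reads with interferon in the lines lacking p150 (0%; edgeR, 5 had a p under 0.05 before adjustment, 4 of them lower; DESeq2 called 0). In wild type it was 0 of 313 (0%; edgeR, 21 had a p under 0.05 before adjustment) and in STAT2-null cells 0 of 346 (0%; 16). At 7 of the 349 loci (2.01%) the treated libraries had more reads than the untreated ones in both lines without overlap, and at 16 (4.58%) fewer. The 7 were AI607873, Slfn5, Mpeg1, Rpa1, Chka, Sdf4 and the RNA uc008wrp.2. AI607873, listed in RefSeq as Ifi207 of the HIN-200 family of interferon-inducible genes, had the smallest p of them: 184 and 1710 reads in untreated and 2137 and 2174 in treated ADAR1-null libraries, and 1284 and 1376 against 4156 and 2912 in the p150 knockout (edgeR adjusted p = 0.982, not called). Slfn5, a Schlafen gene inducible by interferon, had 216 and 0 reads in untreated and 927 and 720 in treated ADAR1-null libraries. In the p150 knockout it had 0 and 2 reads untreated and 4 and 729 after interferon. Only the first treated p150-knockout library, again, lacked the reads (edgeR adjusted p = 0.982). Wild-type cells had 323 and 283 untreated and 852 and 715 treated reads (edgeR adjusted p = 0.0982), and STAT2-null cells 797 and 681 against 837 and 735.

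Ifi203, of the same family as Ifi207 and chosen after its values were seen, had 361 and 316 reads in untreated and 783 and 588 in treated p150-knockout libraries. In ADAR1-null cells it had 2 and 617 untreated and 593 and 590 treated, so only the first untreated library was low (edgeR adjusted p = 0.982). Its relative Ifi202b, chosen in the same way, had 2 and 0 reads in untreated and 8 and 715 in treated p150-knockout libraries, but 2061 to 2317 in all ADAR1-null libraries. Ifnar1 had 1078 to 1210 reads in ADAR1-null and 879 to 1276 in p150-knockout libraries. Adarb1 had 7126 and 5973 reads untreated and 5174 and 5519 treated in ADAR1-null cells, and 6316 and 5898 against 3823 and 3505 in the p150 knockout, without overlap in either line (log2 difference -0.53, edgeR adjusted p = 0.982).

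**Figure D4:**
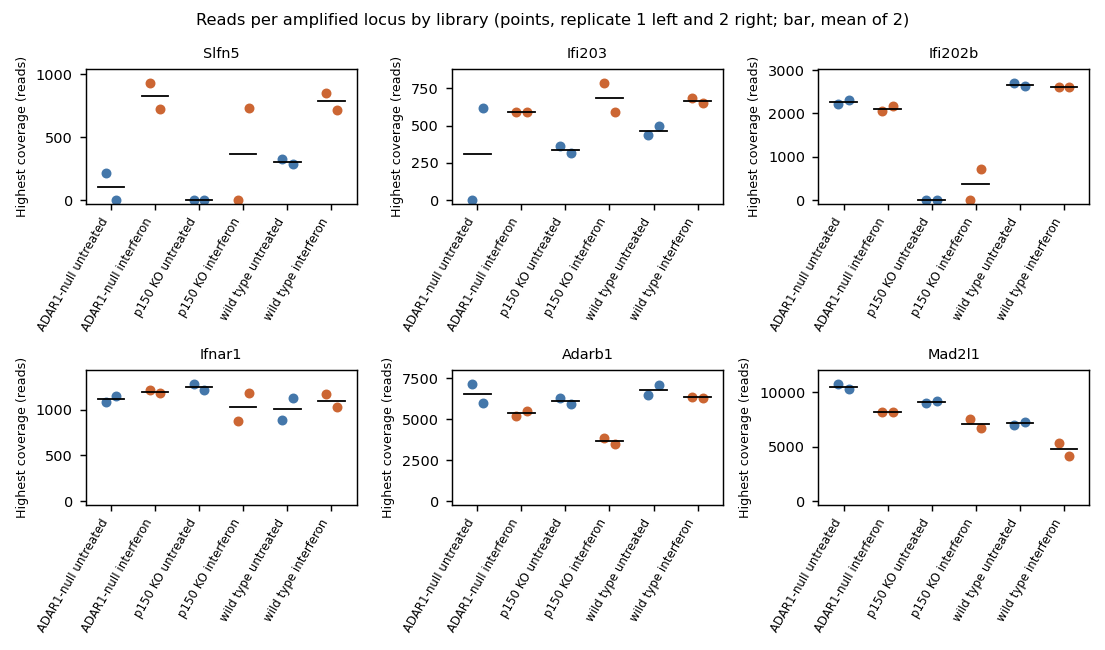
Highest read coverage of any listed site in 6 amplified genes, by library, in both lines lacking p150 and in wild type (points; bar, mean of 2); the axes start just below 0 and differ between panels. Slfn5 has 720 or more reads in 3 of the 4 treated libraries lacking p150 and 216 or fewer in the untreated ones, while Ifnar1 lies between 879 and 1276 reads in all 8 libraries lacking p150.

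The promoters of the 7 loci with more reads in the treated libraries of both lines were searched for the core of an interferon-stimulated response element, the motif GAAANNGAAA on both strands (TTTCNNTTTC on the other), in windows from 250 bases before to 50 after each start, taken from RefSeq on GRCm38.p6, a build other than that of the editing files. Over all genes it is in 1131 of 32851 such windows (3.44%). That share is per window and over all genes, not per amplified locus, so the counts below cannot be set against it. None of the 7 loci was called, and the 16 loci with fewer reads in treated libraries of both lines were not searched. Of the 7 loci 6 had a window, and 2 of these held the motif: Slfn5 (chr11:82951852-82952151, plus strand) and Ifi207 (chr1:173741760-173742059, minus strand). It was also in 1 of the 2 windows of Ifi203, but not in the window of Ifi202b or in the 3 of Adar. The pair with the motif is shown 5′ to 3′ along the gene with the motif in capitals; a match describes these letters only, and the search was made with the read counts known.
Slfn5: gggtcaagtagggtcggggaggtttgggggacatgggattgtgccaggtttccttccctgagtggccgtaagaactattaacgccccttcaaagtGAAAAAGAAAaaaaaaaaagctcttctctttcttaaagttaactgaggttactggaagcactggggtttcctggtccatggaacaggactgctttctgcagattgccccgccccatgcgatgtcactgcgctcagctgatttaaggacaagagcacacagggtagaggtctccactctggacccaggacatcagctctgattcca
Ifi207: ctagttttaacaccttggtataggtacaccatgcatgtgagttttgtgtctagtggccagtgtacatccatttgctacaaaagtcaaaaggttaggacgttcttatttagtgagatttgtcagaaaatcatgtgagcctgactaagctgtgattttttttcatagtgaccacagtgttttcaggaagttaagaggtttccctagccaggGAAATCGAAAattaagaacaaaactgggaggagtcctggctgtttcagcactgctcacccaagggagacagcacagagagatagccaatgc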

How the data were processed

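Per the labels' protocols, 557 loci were amplified by RT-PCR from total RNA and indexed in 15 cycles of PCR; per the submitters' processing notes, reads were handled with BWA and SAMtools on mm9; no source used here names versions or filters. Per the file headers, the authors deposited coverage and edited reads as counts and the editing level as a fraction, for the same 48425 sites in each library. Positions are the files' own, and no header says if counting starts at 0 or 1. The reads carry no molecular identifiers, so the tests cover counting error and the spread between libraries only.

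Levels were computed as edited reads over coverage, in percent. Sites needed at least 50 reads in every library compared and a mean of at least 1%. Edited and unedited reads were fitted with edgeR 4.0.16 (R 4.3.3; methylation design matrix, glmQLFit, glmQLFTest, two-sided), with line and treatment as terms, and Benjamini-Hochberg adjustment over all sites tested; a site was called under 0.05. Differences between lines were interaction terms. Intervals used limma 3.58.1 with a variance trend. Locus reads, the highest coverage in a gene or a 5 kb intergenic cluster, used edgeR with at least 50 reads as a filter. DESeq2 1.42.0, limma on log2 odds (offset 0.5), other filters, all 20 libraries, the replicate number as a block and each library left out were alternatives. Scripts were tested on simulated data. Libraries of a group differed by more than counting noise in every group (chi-square per degree of freedom 3.14 to 9.42). Same-numbered libraries did not deviate together (correlations of -0.0723 and -0.0634), so the numbers were not taken as pairs.

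Named sites were, per comparison, the called ones and the 12 genes with the smallest p, besides the 12 genes with the highest untreated level and the 12 with the greatest wild-type rise, 1 site each; some are given only in counts, and 1 gene of a list is not reported here by name. Members and lists were chosen with earlier results of these data known. Figures were made with matplotlib 3.10.9 and Python 3.11.15.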

Additional observations from a re-analysis of the deposited data

Results flagged for a closer look

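The response to interferon of the lines lacking p150 differed from that of wild-type cells at 119 of 586 sites by a test of the interaction (edgeR's quasi-likelihood test, adjusted p under 0.05), and from that of STAT2-null cells at 1 of 236. The differences from wild type, in percentage points of editing, were -81.1 at 2900026A02Rik, -77.5 at Mmgt1, -70.4 at Gla and -70.3 at Mlh3. They were -69.4 at Fubp3, which encodes a single-stranded DNA-binding protein, -65.8 at Rhoa, -64.7 at Nrp1, a co-receptor for semaphorins, and -60.4 at an intergenic site on chromosome 13. They were -59.5 at Bri3bp, -56.0 at Gnl3l, -54.9 at Exoc8, a subunit of the exocyst, and -51.3 at 2610002M06Rik. At each of these sites both treated wild-type libraries lay above both untreated ones, but this lack of overlap was a condition for naming a site here. Groups of 2 libraries were too small for a check of single outlying libraries.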

How the results depend on the processing

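Calls were few and moved with the settings. The single site called in the lines lacking p150 became 3 with no minimum level, 0 with a mean of at least 5% (the Mad2l1 site is then not tested), 0 with limma, 6 with all 20 libraries, 2 with DESeq2, 5 without both libraries that stood apart, and 0 to 4 with each library left out. ADAR1-null cells alone had 1 called site with no minimum level, a further Mad2l1 position that was higher after interferon. Their count also rose without either treated p150-knockout library, through Mad2l1 positions that were lower after interferon. The p150 knockout had 0 with a mean of at least 5%, 0 with limma, 3 with all 20 libraries and 0 to 6 with a library left out. The difference between the lines had 1 with no minimum level and 0 to 1 with a library left out; loci had 2 and 0 to 2. The difference from wild type had 62 with a mean of at least 5%, 275 with limma (272 smaller and 3 larger) and 62 to 120 with a library left out. That from STAT2-null cells had 0 at a coverage minimum of 20, 2 with no minimum level, 0 with limma and 0 to 4 with a library left out. With the replicate number as a block, counts were 1 in the lines lacking p150, 0 in ADAR1-null cells, 0 in the p150 knockout, 0 for their difference, 38 against wild type (37 of them among the 119), 0 against STAT2-null cells, 0 over loci and 0 for locus reads; the size limit kept its median of 0.0210 points and the mean level gave p = 1 by exact sign flips of 4 pairs. The average difference in mean level was 0.0366 points with no minimum level and -0.538 to 0.301 with a library left out, positive at 0.301 without the first untreated ADAR1-null library and at 0.192 without the second treated p150-knockout library; without both libraries that stood apart, a check added after seeing the data, it was -0.215. Sites not called whose log2 odds ratio changed sign were Als2cl (0.14 without both libraries that stood apart; -0.494 to 0.0165 with a library left out), Nt5dc3 (-0.749 to 0.0165) and Mdc1 (-1.34 to 0.00650). The causes were not tested. The median at wild-type-raised sites (0.00486 to 0.0471 points with a library left out) and the count of 0 changed locus reads kept their side under all alternatives run. Sites with fewer than 50 reads in any library compared were not tested.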
